A study of Homo sapiens with 18 samples.

Results

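A stretch of human chromosome 20 carries LAMA5, RPS21, CABLES2 and GATA5, followed by the host gene of the muscle microRNAs MIR1-1 and MIR133A2. Its regions of Ser5 Pol II signal were chosen by position, as the rows of the count table that overlap bases 60883000 to 61170000 of the hg19 build. This gave 8 regions of 12123 in the table. The stretch had been picked with fold changes of these same libraries already known, so its values are given here as a description and support no test.

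Ser5 Pol II, the RNA polymerase II form with phosphate on serine 5 of the repeats in its tail, was measured by ChIP-seq, in which DNA bound by the protein is recovered with an antibody and sequenced. The cells were Rh30, an alveolar rhabdomyosarcoma line, with the fusion transcription factor PAX3-FOXO1 joined to an FKBP tag. The tag lets the small molecule dTAG47 send the fusion protein for degradation. The groups were 500 nM dTAG47 for 2 h, 500 nM dTAG47 for 4 h, and DMSO, the solvent, with 2 libraries each, called A and B after the table's columns, and all 3 groups carried the tagged fusion. The labels give no time for DMSO and do not tie the 2 libraries of a group to separate cultures, so their spread may be technical. The other 12 of the 18 samples, made with other antibodies, were not analysed here.

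The serine 5 mark is laid down as Pol II starts transcription and is strongest near start sites. LAMA5 encodes the laminin alpha-5 chain of basement membranes, RPS21 a protein of the small ribosomal subunit, and CABLES2 a substrate of the kinases Cdk5 and Abl. GATA5 encodes a zinc-finger transcription factor of heart and endoderm. The microRNAs miR-1 and miR-133a are enriched in skeletal and cardiac muscle and are cut from one host transcript. In mouse myoblasts, miR-1 is known to promote differentiation and miR-133 proliferation.

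The mature products of the microRNA genes at the end of the stretch are shown because the largest difference at each time stood at a region there. They come from RefSeq (GRCh38.p14), with the seed, bases 2 to 8, in capitals. MiR-1-3p shares its seed with miR-206, and miR-133a-3p with miR-133b. The pairs differ at 4 and 1 of 22 bases.
miR-1-3p: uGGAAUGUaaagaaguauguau
miR-206: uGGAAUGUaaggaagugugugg
miR-133a-3p: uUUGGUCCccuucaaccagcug
miR-133b: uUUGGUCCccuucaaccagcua

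MiR-1-3p and miR-133a-3p are each also made from a second gene, MIR1-2 and MIR133A1 on chromosome 18, with the same mature sequence. Of the 2370 mature names in the RefSeq table, miR-613 is the remaining one with the miR-1 seed. The hairpins of the chromosome 20 copies are given with both mature arms in capitals.
MIR1-1: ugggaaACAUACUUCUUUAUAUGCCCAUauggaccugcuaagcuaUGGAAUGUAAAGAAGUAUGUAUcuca
MIR133A2: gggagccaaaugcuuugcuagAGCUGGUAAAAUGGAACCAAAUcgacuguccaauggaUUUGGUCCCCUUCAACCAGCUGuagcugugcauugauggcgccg

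The 8 regions each span 400 bases and are not spread evenly over the 287 kb. The LAMA5 segment (60883000 to 60943400) held 2, the RPS21 and CABLES2 segment (60943401 to 60983000) 1, the segment upstream of GATA5 (61052501 to 61146999) 3, and the microRNA host segment (61147000 to 61170000) 2. The GATA5 segment itself (61037000 to 61052500) held 0, and so did the 54.0 kb between CABLES2 and GATA5. The table therefore gives no Ser5 value for GATA5, which does not show that the gene lacked Pol II. The longest gap between neighbouring members, 125 kb, spans it, against a median of 55.1 kb between neighbours among the 395 regions of chromosome 20. A longest gap set beside a median does not show that the gap is unusual, which was not tested. In the RefSeq order of genes, RBBP8NL lies between CABLES2 and GATA5, and the long noncoding RNA CRMA, also named MIR1-1HG-AS1, lies beside MIR1-1HG, the microRNA host. Other long noncoding RNA genes come between GATA5 and CRMA. LAMA5-AS1 and RPS21-DT, also long noncoding RNAs, come between LAMA5 and RPS21. ChIP DNA carries no strand, so Pol II on a gene and on its antisense partner cannot be told apart. An hg19 annotation was not used, so a region is named by its segment and is tied to no promoter, exon or intron.

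With dTAG47, Ser5 Pol II was higher at the microRNA host, where both regions lay above DMSO at both times and reached 1.93-fold and 1.76-fold at 4 h. One LAMA5 region and 2 of the 3 upstream regions also lay above DMSO at both times. Of all regions, 21.9% lay above DMSO in this way at 2 h and 20.2% at 4 h. The share above at both times was not counted. The single region of RPS21 and CABLES2, the one with the most signal, did not. Values are CPM, counts relative to a common library total, scaled by TMM, a method that matches the bulk of regions between libraries, and all regions have the same span, so their levels can be compared. A shift common to every region would escape this scaling.

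**Figure D1:**
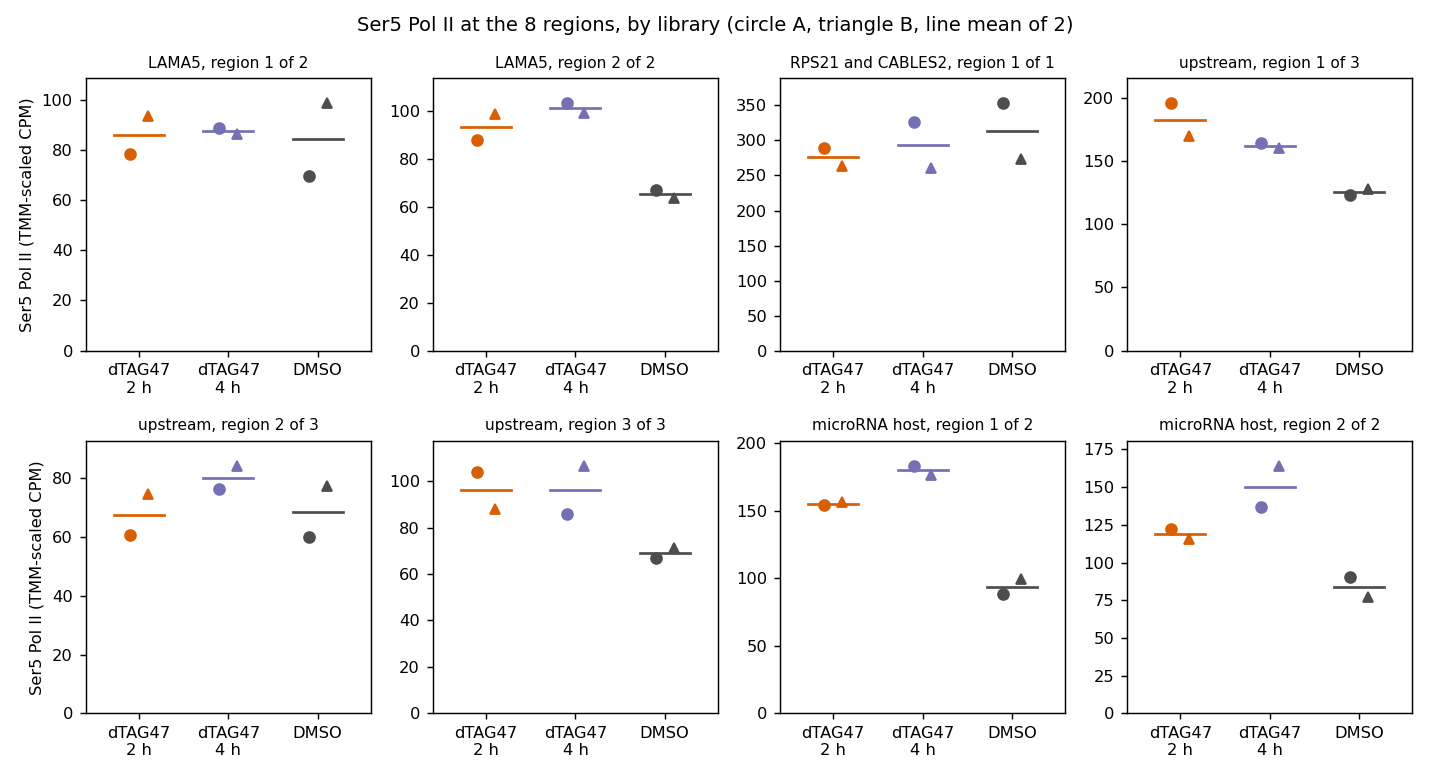
TMM-scaled CPM of Ser5 Pol II at each of the 8 regions in order of position, with a circle for library A, a triangle for library B and a line for the mean of 2 libraries, in the 2 h, 4 h and DMSO groups. Both microRNA host regions have all 4 dTAG47 libraries above both DMSO libraries, whereas the RPS21 and CABLES2 region spans 260.0 to 353 CPM with the groups overlapping.

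The first microRNA host region, at 61148180 to 61148580, had 221 and 206 counts at 2 h, 291 and 166 at 4 h, and 164 and 145 in DMSO, for libraries A and B. Scaled, this was 154 and 157 CPM at 2 h, 183 and 177 CPM at 4 h, and 88.6 and 99.2 CPM in DMSO. All 4 dTAG47 libraries stood above both DMSO libraries, and both 4 h libraries above both 2 h libraries. The latter held for 4 of the 8 members, in and outside the host, and the reverse for 1. The share of all regions with 4 h clear of 2 h is not given here, so nothing is read from this order. The log2 fold change in edgeR's quasi-likelihood fit of all 12123 regions was 0.73 at 2 h (SE 0.15, 1.66-fold) and 0.95 at 4 h (SE 0.15, 1.93-fold). It took rank 132 from the top among the 12123 log2 fold changes at 2 h, and rank 47 at 4 h.

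The second microRNA host region, at 61168491 to 61168891, lies 19.9 kb further on, near the end of the stretch. It had 122 and 116 CPM at 2 h, 137 and 164 CPM at 4 h, and 90.7 and 77.3 CPM in DMSO. The groups did not overlap, and 4 h was the highest. Its log2 fold change was 0.49 at 2 h (SE 0.15) and 0.81 at 4 h (SE 0.15), or 1.41-fold and 1.76-fold. Summed over the host's 2 regions, the level was 274 ± 3.10 CPM at 2 h and 331 ± 14.7 CPM at 4 h, against 178 ± 1.92 CPM in DMSO (SD, n = 2 each). In each group the 2 regions differed in opposite directions between libraries A and B, which narrowed the spread of the sum. In DMSO their own SDs were 7.55 and 9.46 CPM.

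Of the LAMA5 segment's 2 regions, the one at 60942049 to 60942449 lies near the segment's upper end. LAMA5 reads towards lower positions, so this is the side of its start. It had 88.0 and 98.8 CPM at 2 h, 103 and 99.1 CPM at 4 h, and 67.0 and 63.6 CPM in DMSO. The groups did not overlap, and the log2 fold change was 0.51 at 2 h and 0.63 at 4 h (SE 0.15 each).

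The other LAMA5 region, at 60912254 to 60912654, lies 29.4 kb lower. It ranged from 78.2 to 93.5 CPM at 2 h and from 86.3 to 88.8 CPM at 4 h, inside the DMSO range of 69.7 to 98.5 CPM. Its log2 fold change was 0.04 (SE 0.16) at 2 h and 0.08 (SE 0.16) at 4 h. Its sign turned without DMSO library A, to -0.20 at 2 h and -0.17 at 4 h, and at 2 h also without 2 h library B, to -0.08, and with total count scaling, to -0.02. It turned as well with a covariate for the counts taken by the table's 3 highest regions, to -0.08 at 2 h and -0.09 at 4 h. The 2 LAMA5 regions can be set against each other within a library, which no scaling alters. The ratio of the upper to the lower region's counts was 1.12 and 1.06 at 2 h and 1.16 and 1.15 at 4 h, against 0.961 and 0.646 in DMSO.

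The RPS21 and CABLES2 region, at 60961998 to 60962398, lies 19.5 kb beyond the upper LAMA5 region. It had 289 and 264 CPM at 2 h, 326 and 260.0 CPM at 4 h, and 353 and 273 CPM in DMSO. In each group library A was above library B, and the groups overlapped. The log2 fold change was -0.18 at 2 h (SE 0.15) and -0.09 at 4 h (SE 0.15). Its sign turned without DMSO library A, to 0.02 at 2 h and 0.11 at 4 h, without 4 h library B, to 0.06 at 4 h, and with the same covariate, to 0.01 at 2 h and 0.21 at 4 h. Its mean of 294 CPM over the 6 libraries ranked 173 from the top of 12123 regions, against a median region of 64.2 CPM.

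Upstream of GATA5, the region at 61086948 to 61087348 had 196 and 169.5 CPM at 2 h, 164 and 159.8 CPM at 4 h, and 123 and 128 CPM in DMSO. Both dTAG47 groups lay above DMSO, and both 4 h libraries lay below both 2 h libraries. Its log2 fold change was 0.54 at 2 h (SE 0.14) and 0.37 at 4 h (SE 0.15). The next region, at 61087871 to 61088271, starts only 0.523 kb after it ends. It ranged from 60.7 to 74.5 CPM at 2 h and from 76.2 to 84.2 CPM at 4 h, against 59.9 to 77.3 CPM in DMSO, with log2 fold changes of -0.01 and 0.23 (SE 0.17 and 0.16). At 2 h its sign turned without DMSO library B, to 0.18, and without 2 h library A, to 0.13. Within a library, the count ratio of the first to the second of this close pair was 3.22 and 2.28 at 2 h and 2.15 and 1.90 at 4 h, against 2.05 and 1.65 in DMSO.

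The third upstream region, at 61142250 to 61142650, lies 5.53 kb before the first microRNA host region. It had 104 and 88.2 CPM at 2 h, 85.7 and 107 CPM at 4 h, and 67.0 and 71.2 CPM in DMSO. Its groups did not overlap with DMSO, and its log2 fold change was 0.48 at 2 h and 0.45 at 4 h (SE 0.16 each). The host region beside it exceeded it in every library. The count ratio of host to neighbour was 1.48 and 1.78 at 2 h and 2.14 and 1.66 at 4 h, against 1.32 and 1.39 in DMSO.

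**Figure D2:**
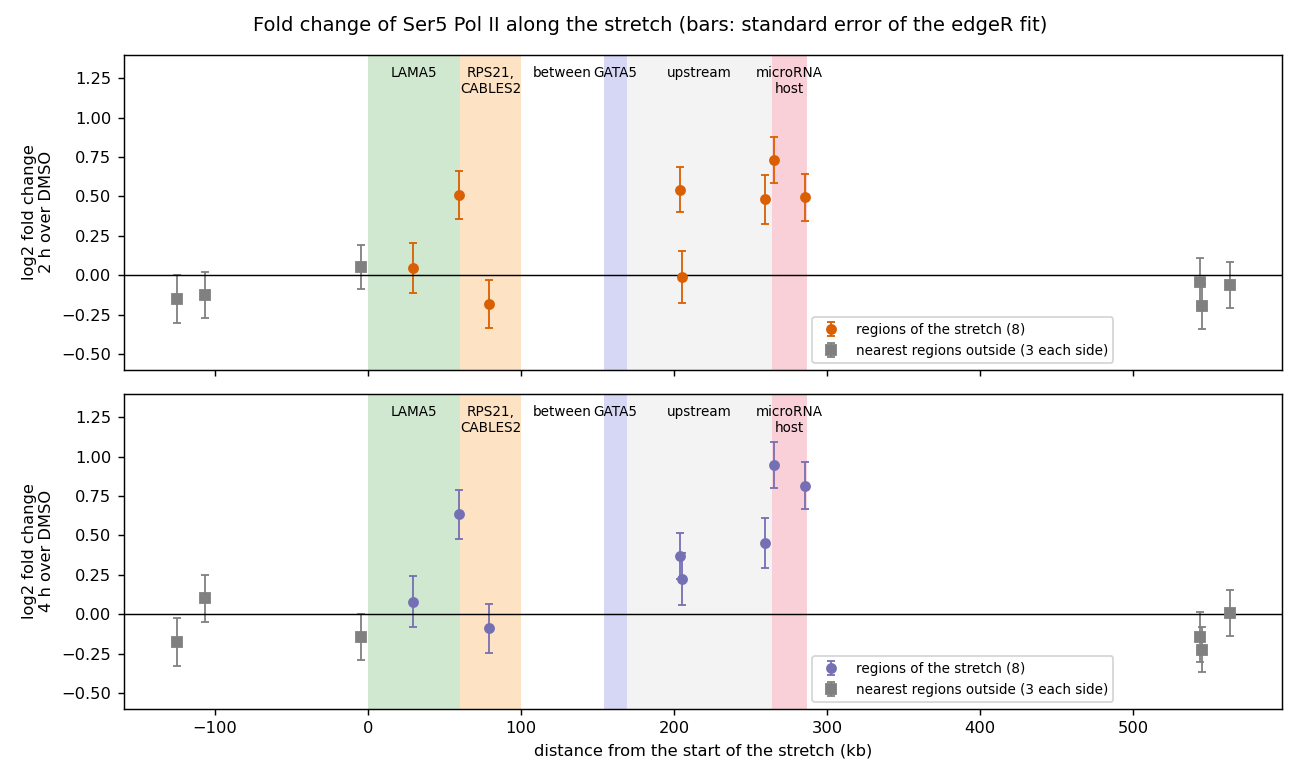
Log2 fold change of Ser5 Pol II (vertical axis) by distance in kb from the start of the stretch, at 2 h over DMSO above and 4 h over DMSO below, with bars for the standard error of the edgeR fit and shading for the segments. The GATA5 segment holds no point, the microRNA host regions reach 0.95 at 4 h, and the grey squares, the 3 nearest regions outside on each side, lie between -0.22 and 0.10 at 4 h.

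A region was called when its edgeR p-value, adjusted by Benjamini-Hochberg over all regions, was under 0.05. At 2 h, 2 of the 8 members were called higher, the upstream region at 61086948 and the host region at 61148180, beside 2.22% of all regions, and 0 were called lower, beside 0.396%. At 4 h, 3 were called higher, the LAMA5 region at 60942049 and both host regions, beside 1.52% of all regions, and 0 lower, beside 0.487%. Without adjustment, at p under 0.05, 5 members were higher at 2 h in each of edgeR, DESeq2 and limma-voom, beside 8.88%, 3.58% and 9.30% of all regions, and 0 were lower, beside 5.44%, 1.11% and 5.16%. At 4 h, 5, 3 and 5 were higher, beside 8.20%, 3.12% and 8.27%, and 0 were lower, beside 5.09%, 1.15% and 4.91%. Because the stretch was picked with both contrasts known, nothing is read from these counts. The host region at 61148180 was the one member called at both times.

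The calls outside the host were not made under every alternative. The upstream region at 61086948 was not called at 2 h with total count scaling, cyclic loess or DESeq2, nor without DMSO library A, 2 h library A or 2 h library B, with log2 fold changes from 0.43 to 0.65 over all alternatives. The LAMA5 region at 60942049 was not called at 4 h with DESeq2, nor without DMSO library A or 4 h library A (0.58 to 0.67 over all alternatives). Both host calls at 4 h, and that at 61148180 at 2 h, were made in 16 of 16 alternatives. The alternatives refit the same libraries with which the stretch was picked, so nothing is read from this. The share of all called regions kept in 16 of 16 was not counted. Without either 4 h library, which enter the 2 h comparison only through the scaling and the estimate of spread, 4 and 5 members were called higher at 2 h, beside 2.94% and 3.01% of all regions.

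In 5 of the 8 members both 2 h libraries lay above both DMSO libraries, beside 21.9% of all regions, and in 0 both lay below, beside 21.8%. At 4 h the same counts were 5 above, beside 20.2% of all regions, and 0 below, beside 20.6%. The members above were the same 5 regions at both times, the 2 host regions, the LAMA5 region at 60942049 and the upstream regions at 61086948 and 61142250. The 2 times share the DMSO libraries. The median log2 fold change of the 8 members was 0.49 at 2 h and 0.41 at 4 h, against -0.01 for all regions at either time. The lower and upper quartiles of all regions were -0.17 and 0.15 at 2 h and -0.16 and 0.15 at 4 h.

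**Figure D3:**
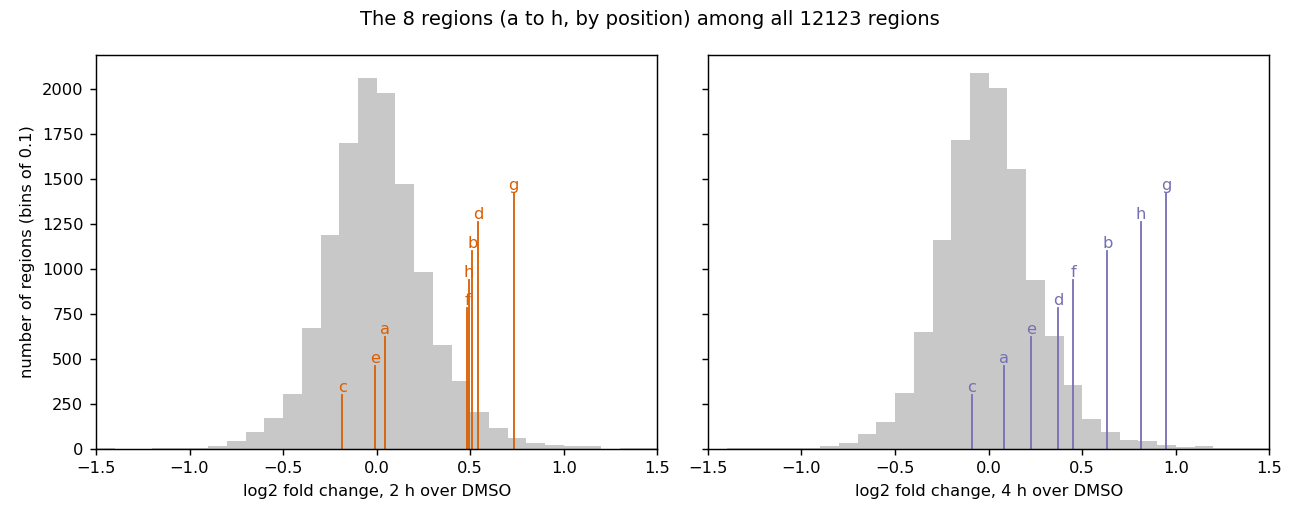
Histogram of the log2 fold changes of all regions in bins of 0.1, at 2 h over DMSO on the left and 4 h over DMSO on the right, with the 8 members marked a to h by position. The heights of the marker lines carry no value. The first host region (g) stands farthest right in both panels, at 0.73 and 0.95, and the RPS21 and CABLES2 region (c) farthest left, at -0.18 and -0.09.

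Set directly against 2 h, 4 h gave 0 members called lower and 0 called higher in edgeR, as for all regions (0% each way). Without adjustment, at p under 0.05, edgeR put 1 member higher and 0 lower, beside 1.20% and 2.07% of all regions. DESeq2 put 0 each way, beside 0.0577% and 0.214%, and limma-voom 1 and 0, beside 1.15% and 2.03%. The second host region, the member counted, had a log2 fold change of 0.32 (SE 0.15) for 4 h over 2 h. The first host region had 0.22 (SE 0.14) and the first upstream region -0.17 (SE 0.14). A difference between the times at the host was therefore not past the threshold, which is no evidence that it was absent.

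The make-up of the stretch within each library depends on no scaling. The 8 regions together had 1564 and 1395 counts at 2 h, 1847 and 1067 at 4 h, and 1702 and 1298 in DMSO. The host's 2 regions took 25.3% (23.2 to 27.6%) and 25.7% (23.4 to 28.0%) of these at 2 h. They took 27.5% (25.5 to 29.6%) and 30.0% (27.3 to 32.8%) at 4 h. In DMSO their share was 19.5% (17.6 to 21.5%) and 19.9% (17.7 to 22.2%). The ranges are exact Clopper-Pearson 95% intervals and cover counting error only. Libraries of a group differ by more than counting error, so the intervals are no test between groups. The RPS21 and CABLES2 region took 26.5% and 24.9% at 2 h and 28.0% and 22.9% at 4 h, against 38.4% and 30.7% in DMSO. The host's regions had 0.957 and 1.03 counts for each count of the RPS21 and CABLES2 region at 2 h, and 0.983 and 1.31 at 4 h, against 0.508 and 0.647 in DMSO. A ratio of this kind shows unequal change and not which of the regions moved.

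**Figure D4:**
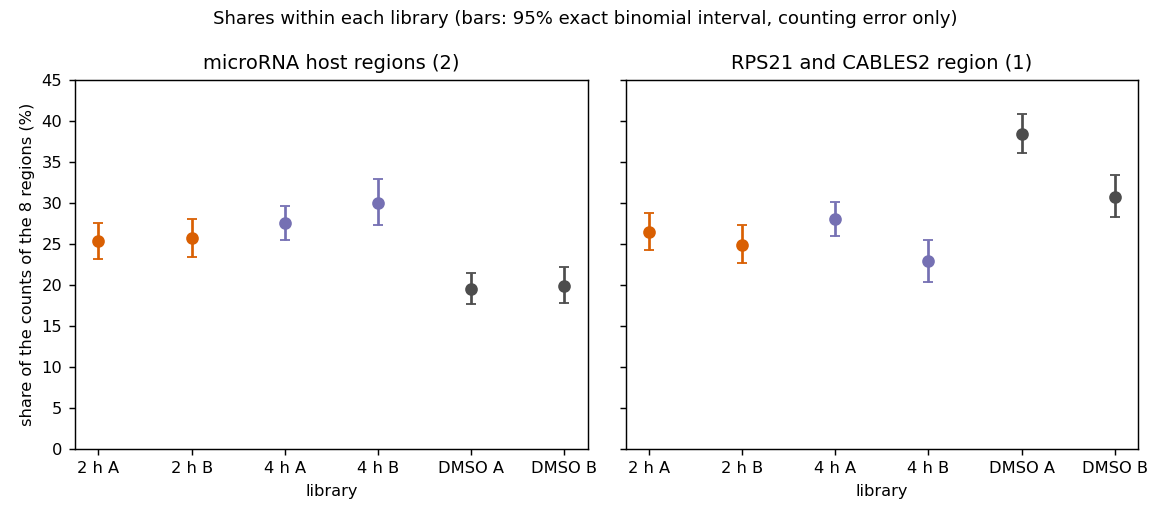
Share of the counts of the 8 regions, in percent, taken by the 2 microRNA host regions (left) and by the RPS21 and CABLES2 region (right) in each library, with exact 95% binomial intervals for counting error. The host's share is 25.3 to 30.0% in the dTAG47 libraries and 19.5 and 19.9% in DMSO.

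The order of the levels also differed between the groups. In each group the RPS21 and CABLES2 region stood first. At 2 h the upstream region at 61086948 came next with 183 ± 18.4 CPM, then the host regions with 155 ± 1.61 and 119 ± 4.70 CPM, each clear of its neighbour in the order. At 4 h the first host region was second with 180.1 ± 4.60 CPM, above the upstream region at 61086948 with 162 ± 2.84 CPM, and the second host region with 150.4 ± 19.3 CPM overlapped the upstream region's values. In DMSO the upstream region at 61086948 was second with 126 ± 3.44 CPM and clear of the first host region at 93.9 ± 7.55 CPM. That host region overlapped the lower LAMA5 region at 84.1 ± 20.4 CPM, which overlapped the second host region at 84.0 ± 9.46 CPM. The LAMA5 region at 60942049 stood last of 8 in DMSO with 65.3 ± 2.34 CPM, overlapping the second upstream region at 68.6 ± 12.3 CPM. At 4 h it stood in place 5 with 101 ± 3.01 CPM, overlapping the third upstream region there.

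The 3 regions nearest to the stretch on each side lie from 4.58 to 276 kb outside its bounds, so most are not close neighbours. Just outside its lower end, 4.58 kb away, the region at 60878017 to 60878417 had 185 and 179 CPM at 2 h and 158 and 161 CPM at 4 h, against 172 and 180.0 CPM in DMSO. Beyond its upper end the nearest region was 256 kb away, at 61426467 to 61426867. It had 80.3 and 100.3 CPM at 2 h and 80.0 and 89.5 CPM at 4 h, against 83.2 and 104 CPM in DMSO. Over the 6 nearest regions, 3 on each side, log2 fold changes ran from -0.20 to 0.05 at 2 h and from -0.22 to 0.10 at 4 h, with 0 called. The difference between these and the members was not tested.

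Across the 6 libraries, log2 CPM of the 5 regions above DMSO at both times correlated with each other with Pearson's r from 0.686 to 0.968. These regions were grouped by lying above DMSO in the same libraries, which by itself makes r positive, so nothing is read from it. The lower LAMA5 region and the second upstream region, outside that group, correlated with each other with r of 0.793. The RPS21 and CABLES2 region correlated with the other 7 members with r from -0.686 to -0.248. Outside the stretch, the region most like the first host region was on chromosome 10 at 13390312 to 13390712 (r = 0.996), followed by regions on chromosome 11 at 64072066 and chromosome 7 at 125203686 (0.991 and 0.990). Those most like the LAMA5 region at 60942049 began with one on chromosome 19 at 24224117 to 24224517 (r = 0.995), and the chromosome 7 region was the fourth (0.988). Of the 12115 regions outside, 267 passed r of 0.9 with the host region and 241 with the LAMA5 region. The 6 points share 3 groups, and these values describe the libraries only.

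Total counts over all regions ran from 1343568 to 1445058 at 2 h, from 962251 to 1585579 at 4 h, and from 1430934 to 1792013 in DMSO. No member had fewer than 79 counts in a library. The share of a library's counts in the table's 3 highest regions was 2.61% and 3.21% at 2 h and 2.61% and 4.17% at 4 h, against 1.77% and 2.61% in DMSO. Library A of each dTAG47 group was level with DMSO library B, so the groups overlapped or touched. With this share as a covariate the same members were called, 2 at 2 h and 3 at 4 h, and the first host region had log2 fold changes of 0.72 and 0.94.

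Promoter sequences are shown for the microRNA host, LAMA5 and RPS21, to set the letters near the starts of these genes beside the values of their segments. Each runs from 250 bases before to 50 after the RefSeq start, 5′ to 3′, on GRCh38.p14, whose positions are not those of hg19. Capitals mark matches, on either strand, to CAGCTG or CACCTG (E-boxes, read by MyoD-type factors), GATAA (GATA factors), ATTA (homeodomains) and GTCACG (paired domains, as in PAX3).
MIR1-1HG, plus strand, chr20:62550203-62550502: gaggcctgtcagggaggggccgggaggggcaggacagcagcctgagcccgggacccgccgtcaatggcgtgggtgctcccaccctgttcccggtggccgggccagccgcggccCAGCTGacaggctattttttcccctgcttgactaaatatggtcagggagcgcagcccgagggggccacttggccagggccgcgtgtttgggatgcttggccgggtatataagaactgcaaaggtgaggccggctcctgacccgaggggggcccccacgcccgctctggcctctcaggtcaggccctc
LAMA5, minus strand, chr20:62367263-62367562: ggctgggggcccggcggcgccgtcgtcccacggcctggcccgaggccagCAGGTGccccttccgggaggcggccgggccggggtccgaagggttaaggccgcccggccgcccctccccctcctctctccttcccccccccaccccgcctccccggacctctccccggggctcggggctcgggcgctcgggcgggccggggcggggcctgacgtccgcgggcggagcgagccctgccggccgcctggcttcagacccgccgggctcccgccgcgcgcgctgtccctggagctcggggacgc
RPS21, plus strand, chr20:62386853-62387152: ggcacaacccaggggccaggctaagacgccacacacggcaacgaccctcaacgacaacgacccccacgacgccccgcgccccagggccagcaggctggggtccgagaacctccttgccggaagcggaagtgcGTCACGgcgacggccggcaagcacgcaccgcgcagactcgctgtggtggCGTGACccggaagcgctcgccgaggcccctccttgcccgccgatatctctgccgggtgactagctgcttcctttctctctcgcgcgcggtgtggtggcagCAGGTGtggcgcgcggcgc

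The MIR1-1HG window holds 1 CAGCTG, which 17.9% of the 35116 RefSeq promoter windows hold. The LAMA5 and RPS21 windows hold 1 CACCTG each, found in 20.6% of windows, and RPS21 also holds 2 GTCACG, found in 9.02%. None of the 3 windows holds GATAA or ATTA, which 22.7% and 50.2% of windows do. Of the windows, 82.7% of bases were G or C at LAMA5, 70.7% at RPS21 and 68.7% at MIR1-1HG, against a median of 58.7%. The CABLES2 window, not printed, holds none of the 5 motifs. Such matches describe the letters only, and whether a measured region lies on one of these windows was not tested.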

How the data were processed

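Ser5 Pol II ChIP-seq counts were given for 12123 regions in 6 libraries. The values are raw counts as the authors deposited them. Per the submitters' processing notes, the builds were hg19 and dm3 (a fly build) and the tools DESeq2, DiffBind, MACS2, Bowtie2 and Trimmomatic 0.32, with no roles named. The calling and counting of regions is not described there. Fly reads are not in the table used here, so no scaling by a spike-in was made. Columns were tied to groups by name, and their letters A and B were not tied to the labels' replicate numbers. Libraries of a group differed by more than sampling noise (chi-square per degree of freedom 1.50 to 2.33) and were counted singly.

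All regions were fitted in edgeR 4.0.16 (R 4.3.3, glmQLFit and glmQLFTest, TMM, 3 groups in 1 fit, no covariate), after a check on simulated data. The simulation gave every region the same spread, so it checks the code and not the calls made here. The filter filterByExpr removed 0 regions, and all 8 members passed. Standard errors are the log2 fold change divided by the square root of F. Alternatives were other scalings, DESeq2 1.42.0, limma-voom and limma-trend (limma 3.58.1), other filters and designs, and leaving out each library. Every member is accounted for, with values by library for each segment's highest region and for called regions. Members and lists were chosen with earlier results of these data known. Likeness is Pearson's r of TMM log2 CPM. Sequences and gene order come from RefSeq (GRCh38.p14). Every microRNA gene named here was matched, as were promoters of LAMA5, RPS21, CABLES2 and MIR1-1HG, and GATA5 is named only. Other laminin, GATA and ribosomal protein genes and muscle markers, planned for comparison, were not analysed here, since no hg19 annotation was used.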

Additional observations from a re-analysis of the deposited data

How the results depend on the processing

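Log2 fold changes of the 8 members in the 3 comparisons were recomputed under 16 alternatives. Of 384 values, 381 moved by less than the spread between libraries and 3 by more, all at the upstream region at 61086948 at 4 h. On leaving out a library this was nearly fixed in advance, since dropping 1 of 2 shifts a group mean by less than their SD. A wide spread also lets large moves pass. The lower LAMA5 region at 2 h ran from -0.20 to 0.31 and was counted within it. The count of 381 is therefore no measure of how stable the values were. No called member changed sign. Of the counts of calls, that at 2 h moved most. Instead of 2 members called higher there was 1 with total count scaling, with cyclic loess and limma-trend and with DESeq2, and 5 when only the 2 groups compared were fitted, beside 1.37%, 1.07%, 0.792% and 3.02% of all regions called higher. Leaving out a library gave 1 to 5, beside 1.05% to 3.01% of all regions. The summed level of the host at 2 h over DMSO was 1.48 with total count scaling, against 1.54 with TMM. The cause of these moves was not tested. A replicate block by column letter gave 5 members called higher at 2 h and 5 at 4 h, beside 5.19% and 4.45% of all regions, against 2.22% and 1.52% without it. The letters are not known to mark a shared batch. The deviations of same-letter libraries correlated with r of 0.219 between DMSO and 2 h, 0.279 between DMSO and 4 h and 0.158 between 2 h and 4 h, from only 2 letters. The filter alternatives changed no call among the members, and omitting filterByExpr tested nothing, since it removed 0 regions. The standard errors of the members' log2 fold changes, 0.14 to 0.17, limit what 2 libraries a group can show.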
